A study of Mus musculus with 12 samples.

Results

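The SOCS family comprises 8 genes, Socs1 to Socs7 and Cish, and was followed here through every N6-methyladenosine (m6A) peak that 2 deposited peak lists assign to them. The members were taken by gene name. All 8 were found, with 26 of the 41153 peaks of the Mettl3 knockout (KO) list and 18 of the 36682 peaks of the wild-type (WT) list. All cells were BV2, an immortalised mouse microglial line, and all were treated with bacterial lipopolysaccharide (LPS). The series describes 12 libraries in 4 groups of 3: m6A antibody pull-down (IP) and input from Mettl3 KO cells, and IP and input from WT cells. METTL3 is the catalytic subunit of the enzyme complex that places m6A on messenger RNA. The labels give no LPS dose or time, and do not say whether the knockout is 1 clone. The protocol text speaks of neuroblastoma cells, against BV2 microglia in the sample labels.

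Each genotype is represented by 1 list, without replicate values, so no spread could be measured and no difference between the genotypes was tested. The authors gave each peak an enrichment, the log2 of IP over input, and an adjusted p-value, and both are quoted as theirs. Sequencing depth per library is unknown here. A peak's span runs along the genome and includes introns. Peaks of 9 of 10 microglia and macrophage markers were present in both lists, all but P2ry12, against 1 of 9 neuronal or neuroblastoma markers, 1 of 4 oligodendrocyte markers (Mbp, 1.72 in KO and 4.11 in WT) and 0 of 4 astrocyte markers. Mettl3 RNA carried 6 peaks in KO and 3 in WT, and its strongest log2 was 2.07 in KO and 1.57 in WT, which measures enrichment and not the amount of Mettl3.

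SOCS proteins are the feedback brakes of cytokine signalling. A cytokine receptor activates JAK kinases, these phosphorylate STAT transcription factors, and STATs switch on SOCS genes, whose products bind the receptor or the kinase through an SH2 domain. A second conserved part, the SOCS box, recruits Elongin B, Elongin C and the ligase scaffold CUL5, which leads to ubiquitination of the bound protein. In macrophages and microglia, Socs1 and Socs3 are known for limiting responses to interferons and interleukin-6 after LPS.

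Promoter windows of 300 bases (250 before and 50 after the start) were held for 4 members among RefSeq sequences (assembly GRCm38.p6). They are shown for matches to a STAT element and to an element of the interferon pathway. The STAT element TTCNNNGAA reads the same on both strands, and was found in 8.30% of all 32851 windows. The interferon regulatory factor (IRF) element, GAAA followed by any 2 bases and again GAAA, was searched on both strands after the sequences had been seen, and was found in 3.44%. Capitals mark the matched bases, and each run is written 5′ to 3′ along the gene's strand.
Cish, 2 STAT elements, chr9:107296654-107296683, plus strand: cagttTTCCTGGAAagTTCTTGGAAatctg
Socs3, 1 STAT element, chr11:117969504-117969528, minus strand: aaccagccTTCTTAGAAgggagggg
Socs1, 2 IRF elements that overlap, chr16:10785597-10785626, minus strand: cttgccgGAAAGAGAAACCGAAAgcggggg
The Socs4 window held neither element. The Socs1 window held no STAT element, and the Cish and Socs3 windows held no IRF element. A match is a description of the letters and not a measured binding site. By coordinate, the Cish and Socs3 runs lie inside the gene spans of the peak lists, whose genome build is not given. The start of a window can therefore differ from the gene start used for the peaks. Windows with at least 2 STAT elements made up 0.457% of the table, and those with at least 2 IRF elements 0.225%.

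Both lists marked 7 members, and in each of the 7 the strongest peak was weaker in KO. The KO values ran between 1.02 and 2.59 and the WT values between 2.01 and 4.01. Differences (KO minus WT) had a median of -0.89 and a range of -1.57 to -0.30. Socs1 had its only peak in WT, and no member had peaks in KO alone, where 5.03% of genes did. Of the 12323 genes marked in both genotypes, 73.4% were lower in KO, and their differences centred on a median of -0.25 (quartiles -0.64 and 0.015). A difference of -1 or below was reached by 3 of the 7 members, Socs6, Cish and Socs2, against 9.54% of all genes, and by none of the 7 in the other direction, against 0.714%. Socs2 left that count with the peak of lowest adjusted p (-0.48) and, narrowly, with peaks averaged (-0.9997).

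**Figure D1:**
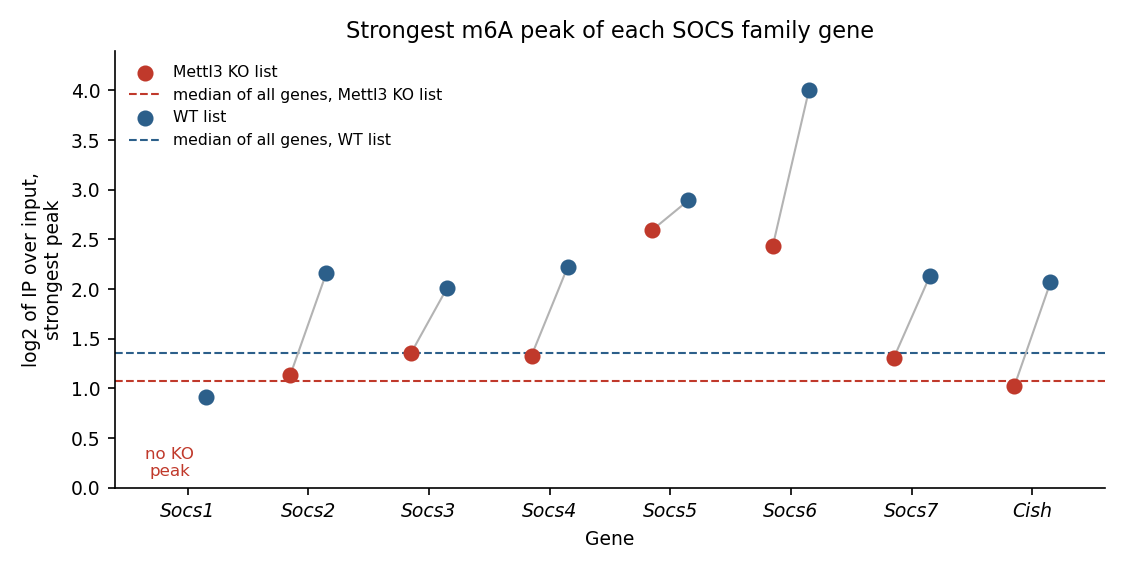
Log2 of IP over input of the strongest peak (vertical axis) of each SOCS family gene (horizontal axis) in the Mettl3 KO list (red) and the WT list (blue), with dashed lines at the median of all genes in each list. The KO point lies below the WT point in the 7 genes with both, and Socs1 has a WT point only.

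Cish (ENSMUSG00000032578), one of the members induced by cytokines, was marked over a shorter stretch in KO. CISH binds activated cytokine receptors and limits STAT5. Its single KO peak lay in the 3' UTR on chromosome 9 from 107300991 to 107301490, plus strand, with a log2 of 1.02 (2.03-fold, adjusted p = 5.84e-05). Its single WT peak, also in the 3' UTR, ran from 107300093 to 107302140 with a log2 of 2.07 (4.19-fold, adjusted p = 3.59e-220). The KO peak lay wholly within the WT peak, took up 24.4% of it, and was lower by 1.05 on the log2 scale. Of the genes marked in both genotypes, 8.17% had a more negative difference than Cish.

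Socs1 (ENSMUSG00000038037), a direct inhibitor of JAK kinases and a main brake on interferon-gamma signalling, had no peak in KO. Its WT peak of 350 bases lay in the 3' UTR on chromosome 16 from 10783840 to 10784189, minus strand, with a log2 of 0.91 (1.88-fold, adjusted p = 0.00685). This was the weakest strongest-peak value of the family in WT, at rank 10204 of 13370 genes, and below the WT median of 1.36. A peak in WT only was found for 7.44% of the 14078 genes with a peak in either list. The KO list holds called peaks only, so whether Socs1 had enrichment below the calling limit there was not tested. The lists hold no RNA level, so less methylation cannot be told apart from less Socs1 RNA here. Likewise, fewer cells with the RNA cannot be told apart from less RNA per cell.

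Socs2 (ENSMUSG00000020027), which limits growth hormone signalling, carried 3 peaks in each list, of which 2 in KO and 1 in WT overlapped. In KO a 5' UTR peak of 375 bases (log2 of 0.61, adjusted p = 0.0405) was followed by 3' UTR peaks of 1441 and 1034 bases with log2 values of 1.13 and 0.91. In WT a single 3' UTR peak of 13016 bases, between 95401721 and 95414736 of chromosome 10 (minus strand), had a log2 of 1.62 and covered both KO peaks of the 3' UTR. The other two WT peaks, of 894 and 100 bases, stood near the far end of the gene with log2 values of 1.87 and 2.16. They are assigned to another transcript of Socs2, and no KO peak overlapped them. The strongest-peak difference of -1.03 therefore set a KO peak on one transcript against a WT peak on another. On the shared transcript the strongest values were 1.13 in KO and 1.62 in WT, a difference of -0.48.

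Socs3 (ENSMUSG00000053113), which binds the interleukin-6 receptor subunit gp130 and blocks the JAK attached to it, gave the simplest comparison. Each list held 1 peak, in the 3' UTR on chromosome 11, minus strand, reaching the end of the gene. It spanned 117966079 to 117967928 in KO with a log2 of 1.35 (adjusted p = 2.51e-110), and 117966079 to 117968003 in WT with a log2 of 2.01 and an adjusted p listed as 0. The KO peak shared 100% of its length with the WT peak, which shared 96.1% of its own. Here the place of the mark was nearly identical in the lists and the enrichment was 2.55-fold in KO and 4.03-fold in WT, a difference of -0.66.

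The remaining members regulate growth factor and insulin receptors more than cytokine receptors. Socs6 (ENSMUSG00000056153), which binds the receptor tyrosine kinase KIT, had the highest WT value of the family and the largest difference. Its main KO peak spanned 26015 bases of chromosome 18, between 88868305 and 88894319 (minus strand), with a log2 of 2.44 (5.42-fold). The matching WT peak, from 88868230 to 88894294, had a log2 of 4.01 (16.1-fold). Both are annotated as 3' UTR, each covered over 99% of the other, and both adjusted p-values are listed as 0. The difference was -1.57, and 1.83% of all genes had a more negative one. By strongest peak Socs6 ranked 726 of 13031 genes in KO and 233 of 13370 in WT. Beyond the main peak, 3 further 3' UTR peaks of 325 to 350 bases were listed in KO with log2 values of 0.74 to 0.80 and none in WT. With peaks averaged in place of the strongest, the difference was -2.83, as these weak peaks enter the KO mean.

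Socs5 (ENSMUSG00000037104), a regulator of the epidermal growth factor receptor, was the member whose strongest values differed least, with 2.59 in KO and 2.89 in WT. Those values belong to different peaks. A 5' UTR peak had the same coordinates in both lists, chromosome 17 from 87107679 to 87120803 on the plus strand, starting at the first base of the gene. Its log2 was 2.59 in KO (adjusted p = 7.22e-38) and 2.71 in WT (1.08e-40), a difference of -0.12. The large 3' UTR peak, of 12856 bases in KO and 12931 in WT, had a log2 of 2.10 in KO and 2.89 in WT, a difference of -0.80. The 5' UTR peak was thus the stronger of the pair in KO and the weaker in WT. Near the gene end, KO peaks of 375 bases each had log2 values of 0.54 and 0.76, and the WT list had 1 peak of 475 bases at 1.13. The second of those KO peaks overlapped it. The gene's difference was -0.75 with the mean over its peaks, and -0.052 once the median of all genes was subtracted.

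Socs4 (ENSMUSG00000048379), the closest relative of Socs5 and likewise linked to the epidermal growth factor receptor, carried 5 KO peaks and 2 WT peaks. The strongest KO peak, in the 3' UTR on chromosome 14 from 47289576 to 47291025 on the plus strand, had a log2 of 1.33 (adjusted p = 8.64e-141). The strongest WT peak, from 47277006 to 47291225, had a log2 of 2.22 and an adjusted p listed as 0. It contained the KO peak, which took up 10.2% of its span, and the difference was -0.89. The other KO peaks lay further 3', with log2 values of 0.43 and 0.44 (125 bases each), 0.50 (375 bases) and 0.89 (275 bases). The last ended 2 bases before the gene end, where the WT list had no peak. The other WT peak, of 125 bases, had a log2 of 0.63 and no KO partner. With peaks of at most 1000 bases alone, which drops both main peaks, the difference was 0.26.

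Socs7 (ENSMUSG00000038485), which takes part in insulin signalling, had the most peaks, 8 in KO and 6 in WT, and every WT peak met a KO peak. Its 5' UTR peak had a log2 of 1.20 over 10492 bases in KO (chromosome 11 from 97362585 to 97373076, plus strand) and of 2.13 over 13973 bases in WT (97362560 to 97376532). Coding-exon peaks were weak in both lists, at 0.52 and 0.45 in KO and 0.64 and 0.59 in WT. The 3' UTR peak at the gene end, from 97398137 to 97398536 in KO and from 97398112 to 97398536 in WT, went the other way. Its log2 was 1.30 in KO (adjusted p = 1.91e-26) and 0.98 in WT (5.30e-12), a difference of 0.32. It was the strongest Socs7 peak in KO, whereas the 5' UTR peak was the strongest in WT. With the mean over its peaks the difference was -0.26, and with peaks of at most 1000 bases alone it was 0.32, that of the gene-end peak. The other 3' UTR peaks had log2 values of 0.42 to 0.74 in KO, and of 0.62 and 0.89 in WT.

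**Figure D2:**
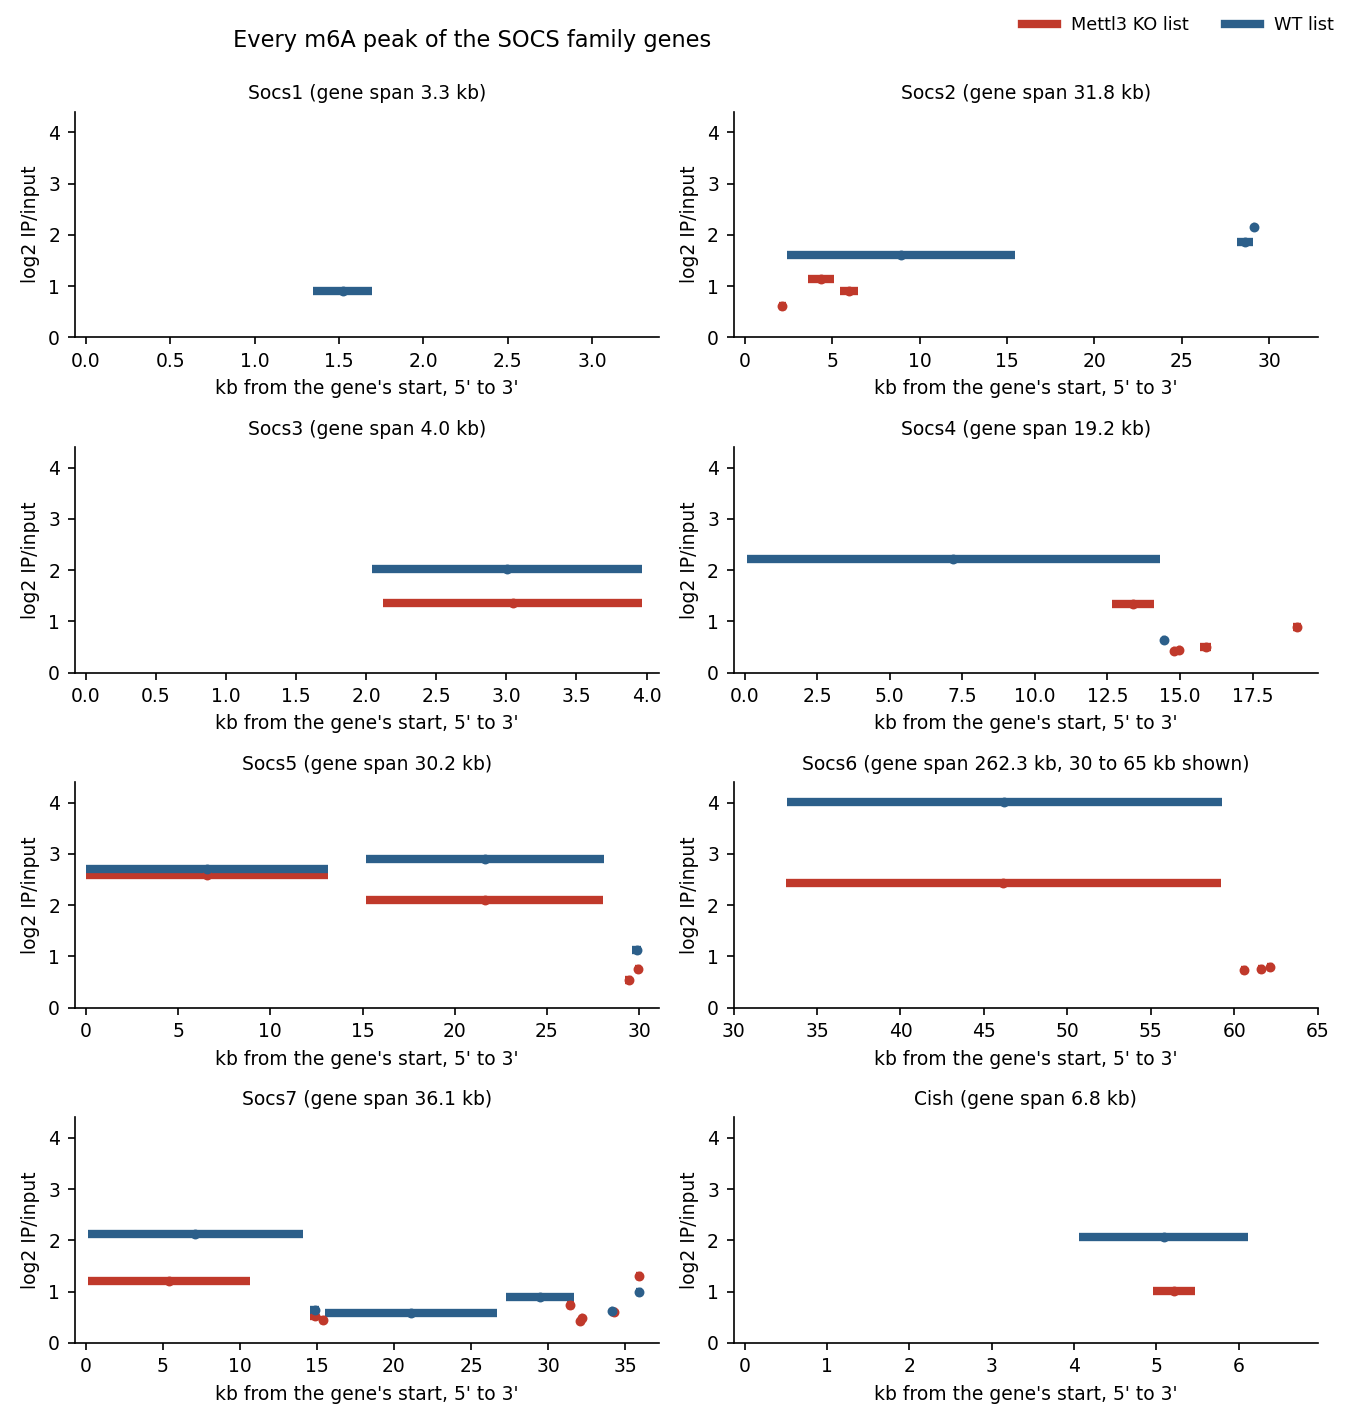
Every m6A peak of the 8 genes, drawn to scale as a line over its span (horizontal axis, kb from the gene's start, introns included) at its log2 of IP over input (vertical axis), in red for the Mettl3 KO list and blue for the WT list, with a dot at the midpoint. The WT lines of Socs2, Socs4, Socs7 and Cish run over stretches where the KO lines are shorter, while those of Socs3, Socs5 and Socs6 have nearly the same ends in both lists.

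As the map of all peaks shows, short peaks were a larger part of the family's peaks in KO. The median span was 412 bases in KO and 1986.5 in WT, whereas over all peaks it was 550 in KO and 573 in WT. The 11 KO peaks without a WT partner, of 100 to 375 bases, enter that KO median. Peaks of more than 1000 bases numbered 8 of 26 in KO and 10 of 18 in WT, and their share among all peaks was not computed. Merged over its peaks and counted along the genome, introns included, Socs7 was covered over 13104 bases in KO and 30655 in WT. Socs4 was covered over 2350 bases in KO and 14345 in WT. Socs2 was covered over 2850 bases in KO and 14010 in WT. Coverage of Socs5 (26731 bases in KO, 26531 in WT), Socs6 (27040 in KO, 26065 in WT) and Socs3 (1850 in KO, 1925 in WT) was close in the lists. More peaks in KO thus went with less covered genomic length in Socs4 and Socs7, but not in Socs5 and Socs6. These lengths are not lengths of marked RNA.

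Most peaks of the family were labelled 3' UTR. That label was carried by 21 of 26 peaks in KO (80.8%) and 14 of 18 in WT (77.8%). Among all peaks the share was 51.4% in KO and 53.0% in WT. Each peak has 1 region label, and long peaks also run over other parts of the gene. The main WT peak of Socs4, labelled 3' UTR, spanned 14220 bases and began 75 bases from the gene start. Coding exons held 2 peaks in each list, both of Socs7, which is 7.69% in KO and 11.1% in WT, beside 25.1% of all KO peaks and 21.1% of all WT peaks. The 5' UTRs held 3 in KO (Socs2, Socs5, Socs7) and 2 in WT (Socs5, Socs7), or 11.5% in KO and 11.1% in WT, close to the 11.9% of all peaks in each list. The strongest peak was annotated as 3' UTR in 6 of 7 genes in KO, all but Socs5, and in 7 of 8 in WT, all but Socs7. No member had an intronic peak, and introns held 4.89% of all KO peaks and 5.58% of all WT peaks, so a count of 0 among 26 and 18 is near that background. Peaks of 1 gene share its RNA, so these shares rest on few independent units.

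Strong peaks were fewer in KO. At 4-fold or more (a log2 of 2) the family had 3 peaks in KO, from Socs5 and Socs6, and 8 in WT, from all members but Socs1. By gene that is 2 of 7 members in KO, where 11.4% of all genes reached 4-fold, and 7 of 8 in WT, where 28.0% did. An adjusted p above 0.001 was listed for 10 of the 26 KO peaks of the family (38.5%, beside 22.9% of all KO peaks) and 4 of its 18 WT peaks (22.2%, beside 18.7% of all WT peaks). The share was thus higher in KO among all peaks too.

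Peak places were then matched across the lists, with 1 base or more in common and strand respected. In KO 15 of 26 peaks (57.7%, 95% Wilson interval 38.9 to 74.5) overlapped a WT peak, beside 72.9% of all KO peaks. In WT 14 of 18 (77.8%, 54.8 to 91.0) overlapped a KO peak, beside 77.2% of all WT peaks. Both intervals take in the share of all peaks, and they cover counting error only. They count peaks as independent, though peaks of the same gene share its RNA, so they can be too narrow. The 11 unmatched KO peaks had log2 values of 0.42 to 0.89 and came from Socs2, Socs4, Socs5, Socs6 and Socs7. The 4 unmatched WT peaks had values of 0.63 to 2.16 and came from Socs1, Socs2 and Socs4.

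These overlaps made 15 pairs of a KO and a WT peak, and 14 pairs had the lower log2 in KO. The exception was the gene-end peak of Socs7. The share lower in KO was not computed over all overlapping pairs of the lists. The member pairs are not independent either. Socs7 gives the most of them, and the long WT peak of Socs2 is paired with each 3' UTR peak of Socs2 in KO. A stricter match required at least 50% of both peaks to be shared and left 8 pairs from Socs3, Socs5, Socs6 and Socs7. Of these, 7 were lower in KO, with a median difference of -0.51, beside 69.8% and -0.12 among all 19475 such pairs. Restricted to pairs whose KO and WT log2 averaged at least 1.5, a limit set after seeing the data, 5 of 5 member pairs were lower in KO (median -0.80), beside 89.2% and -0.71 (quartiles -0.98 and -0.41) among all 3706 pairs of that strength. A difference of -1 or below was found for 1 of the 8, Socs6, against 5.31% of all pairs.

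**Figure D3:**
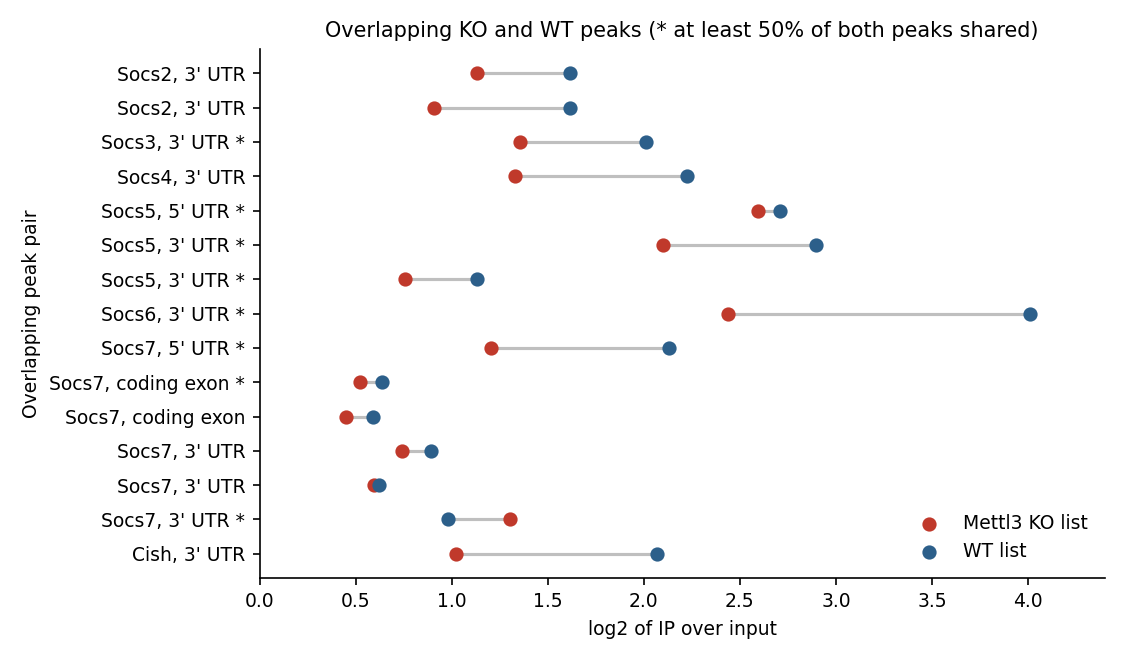
Log2 of IP over input (horizontal axis) of the 15 pairs of overlapping peaks (rows, with gene and KO region), in red for the Mettl3 KO list and blue for the WT list, and a star where at least 50% of both peaks is shared. The red point lies left of the blue point in 14 pairs, and the gene-end 3' UTR pair of Socs7, at 1.30 in KO and 0.98 in WT, is the exception.

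The members present in both lists had high WT values, and genes with high WT values were mostly lower in KO. Among the 3156 genes whose strongest WT value lay within the members' range of 2.01 to 4.01, the median difference was -0.82 (interquartile range -1.07 to -0.56). Of those genes 93.8% were lower in KO, and 31.3% by 1 or more. The members' median of -0.89 lay within that interquartile range. Socs6, at -1.57, and Socs5, at -0.30, lay outside it on opposite sides. The WT value that picked the comparison genes also enters the difference, so the share lower in KO is not independent of that choice. Whether the family differs from other strongly marked genes was not tested.

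**Figure D4:**
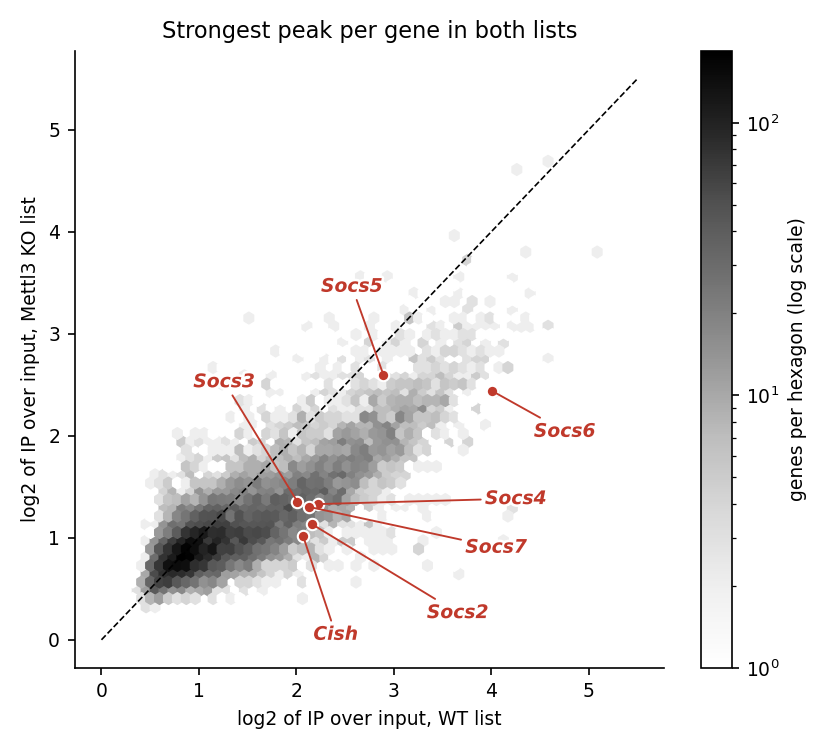
Log2 of IP over input of the strongest peak in the WT list (horizontal axis) and the Mettl3 KO list (vertical axis) for the 12323 genes marked in both, shaded by the number of genes, with the line of equal values dashed. The 7 SOCS family genes (red) lie below the line, Socs5 nearest to it, among many other genes of like WT value.

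The genes around the family were taken from 7 lists, 92 genes in all, of which 74 were marked in either list and 69 in both. Of the 69, 55 were lower in KO (79.7%, beside 73.4% of all genes) and 14 higher, and their median difference was -0.40 beside -0.25 for all genes. A difference of -1 or below was found for 7 (10.1%, beside 9.54% of all genes), and of 1 or above for 0 (beside 0.714%). These shares lay near those of all genes, so the counts by list below are descriptions, each to be read against 73.4% lower in KO. With the difference centred on the median of all genes, 41 of the 69 remained below 0. Centring puts the median of all genes at 0, so 73.4% is not the share to set beside that count.

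The JAK kinases, which SOCS proteins inhibit, were split. Jak1 stood at 1.32 in KO and 2.59 in WT, and Jak3 at 1.12 in KO and 1.62 in WT. Jak2 was higher in KO, at 1.87 against 1.41 in WT, as was Tyk2, at 1.06 against 0.98. Of the STAT factors 5 of 6 were lower in KO, and their median of -0.26 was close to the -0.25 of all genes. Stat2, a carrier of type I interferon signals, stood at 1.28 in KO and 2.19 in WT. Stat5a, the factor that Cish limits, was higher in KO at 1.29, against 0.74 in WT.

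Among the cytokine receptor chains, the upstream partners, 13 of 16 were lower in KO (81.3%, beside 73.4% of all genes; median -0.39). Il12rb1 stood at 1.34 in KO and 2.70 in WT, and Ifngr1, a chain of the interferon-gamma receptor, at 1.63 in KO and 2.63 in WT. Csf2ra (0.86 in KO, 0.72 in WT) and Il2rg (1.36 in KO, 1.28 in WT) were slightly higher in KO. Among reported SOCS targets 9 of 10 were lower in KO, beside 73.4% of all genes (median -0.66). Irs1, an insulin receptor substrate, stood at 1.95 in KO and 3.58 in WT, and Igf1r at 1.82 in KO and 3.03 in WT. Vav1 was the exception, at 0.996 in KO and 0.908 in WT.

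The partners of the SOCS box had a median of -0.11, nearer 0 than that of all genes, and 5 of 6 were lower in KO (83.3%, beside 73.4%). Arih2 stood at 0.93 in KO and 1.41 in WT, and Ube2f at 0.78 in KO and 1.24 in WT, both of which serve the CUL5 ligase. Elob, which encodes Elongin B, was higher in KO, at 0.95 against 0.74. Of the other adaptors with a SOCS box 10 of 14 were lower in KO (71.4%, just under the 73.4% of all genes; median -0.29), among them Spsb4 (1.18 in KO, 2.47 in WT) and Spsb2 (1.19 in KO, 2.12 in WT). Asb1 (1.60 in KO, 1.07 in WT) and Asb11 (1.14 in KO, 0.64 in WT) were higher. Of the 19 adaptors with a peak in either list, Asb13 (0.85) and Asb4 (0.78) had peaks in KO only, against 5.03% of all genes. Spsb1 (3.02), Asb2 (0.71) and Asb5 (0.57) had peaks in WT only, against 7.44% of all genes.

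Other inhibitors of JAK-STAT signalling stood closest to the family in kind, and 11 of 13 were lower in KO (84.6%, beside 73.4% of all genes; median -0.60). Pias1 stood at 1.19 in KO and 2.22 in WT and Pias4 at 1.30 in KO and 2.15 in WT, both SUMO ligases that act on STATs. Pias3 (1.04 in KO, 0.95 in WT) and Usp18 (0.80 in KO, 0.79 in WT), a brake on interferon receptor signalling, were slightly higher. By distance in the KO and WT values of the 2 lists alone, the nearest of these 69 genes was Irs1 to Socs6 (distance 0.65), Il10ra to Socs5 (0.23, at 2.53 in KO and 3.12 in WT) and Stat2 to Socs4 (0.064).

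**Figure D5:**
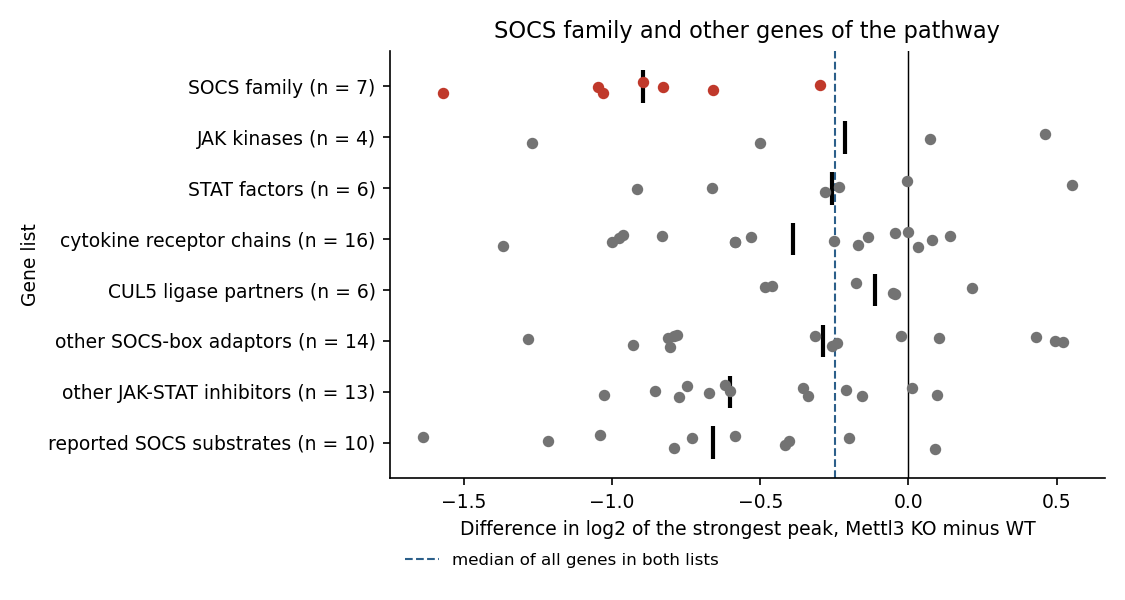
Difference in log2 of the strongest peak, Mettl3 KO minus WT (horizontal axis), for genes marked in both genotypes (points, spread vertically for legibility) of the SOCS family (red) and the 7 other gene lists (grey), with a black bar at each median and a dashed line at the median of all genes, -0.25. The 7 SOCS family points lie between -1.57 and -0.30, and each of the 7 other lists holds points on both sides of 0.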

How the data were processed

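Each genotype has 1 peak list, deposited with a log2 enrichment (IP against input), a p-value and an adjusted p-value for every peak, per the file headers. Per the submitters' processing notes, edgeR, HISAT2, StringTie, HOMER, fastp and FastQC were used, with no role stated. For the peak caller, the genome build and any pooling of replicates, the entry is "not given in the sources used here". Deposited starts count from 0, since 5186 KO and 5098 WT peaks start 1 base below their gene's start and 0 peaks start on it, so 1-based positions are printed. Per-library values were not used here.

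Each gene, counted by gene ID, took the highest log2 among its peaks. Differences are KO minus WT, and 1 (log2) was the size used for counts. Overlaps were found with bedtools 2.31.1, and other steps used matplotlib 3.10.9, SciPy 1.17.1, pandas 2.3.3 and Python 3.11.15. Gene values, overlaps and counts were first tested on simulated data. Members and lists were chosen with earlier results of these data known. Besides the members and Mettl3, the genes named are the most negative and most positive pair of each list, up to 3 per list with a peak in 1 genotype only, and the nearest genes, and 1 gene that this rule names is not reported here. The alternatives changed the threshold, peak span, place, overlap, gene value and centring.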

Additional observations from a re-analysis of the deposited data

How the results depend on the processing

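Every one of the 7 members kept the lower KO value with the mean over peaks, with the peak of lowest adjusted p, and after centring. Limits of 0.001 on adjusted p, of 2-fold, and to the annotated gene kept the strongest peak of each of these 7. Those settings therefore could not change their strongest values. The limits on adjusted p and on fold removed the only Socs1 peak (1.88-fold in WT), which left Socs1 without a peak in either list. With peaks of at most 1000 bases, 4 members remained in both lists and 2 were lower in KO, Socs4 (0.26) and Socs7 (0.32) turned, and the median was -0.055 beside -0.054 for all genes, because the long peaks leave. The median was -0.75 with the mean, -0.83 with the lowest adjusted p, -0.65 after centring and -0.51 over pairs sharing 50%, a summary added after seeing the data. Peaks numbered 16 in KO under that limit on adjusted p, 9 in KO and 11 in WT at 2-fold, and 8 in WT among short ones. Overlapping peaks fell to 8 in KO and 8 in WT at 2-fold and likewise with 50% of both shared, and to 4 and 4 among short peaks. Pathway genes lower in KO numbered 35 of 38 at 2-fold and 28 of 51 with short peaks. The median difference of all genes was -0.49 at 2-fold and -0.054 with short peaks. The share of all genes lower in KO was not computed at these settings.

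The lists hold no per-library values, so leaving out a replicate was not run, and depth is unknown. No paired analysis was possible because the lists carry no replicate numbers.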
